A study of Mus musculus with 6 samples.

Results

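Hepatokines are proteins that the liver releases into the blood and that act on metabolism in other tissues. The 10 genes listed for this account were Fgf21, Angptl4, Angptl6, Angptl8, Ahsg, Fetub, Lect2, Inhba, Inhbe and Gdf15, and a gene counted as measured when the array platform's annotation gave exactly its symbol to a probe set. Of the 10, 9 genes were measured, by 11 probe sets, among 18194 genes with such a probe set. Gdf15 was not analysed here. RNA came from the livers of female mice on a C57 background that were either wild-type or SRC-2 null, with 3 arrays for each genotype. All animals, controls included, were ovariectomized at 6 weeks of age, anaesthetized with Avertin and killed 2 weeks later by cervical dislocation, and liver was flash frozen. The labels do not describe the SRC-2 allele, how the mice were fed or the hour of killing, and nothing says that the 3 samples of a genotype came from separate animals, so each p here rests on the spread among these arrays, which may be technical. The comparison asks which transcripts of these secreted factors differ in liver without SRC-2, a coactivator of nuclear receptors that is the product of Ncoa2.

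Most of these genes are transcribed in hepatocytes and answer to feeding, fasting or stress. FGF21 acts through a receptor tyrosine kinase together with its coreceptor beta-klotho, and its gene is known to be induced by PPAR-alpha in fasting and by ATF4 in amino acid shortage. The angiopoietin-like proteins ANGPTL4 and ANGPTL8 control lipoprotein lipase, the enzyme that frees fatty acids from circulating triglyceride, in fasting and after feeding respectively. Fetuin-A and fetuin-B, encoded by Ahsg and Fetub, are abundant plasma proteins of the cystatin superfamily, and LECT2 is a plasma protein first known as a chemotactic factor for leukocytes. Inhba and Inhbe encode beta subunits of the activins, dimeric ligands of the TGF-beta family.

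The upstream DNA of 4 of these genes is shown because Lect2 was the hepatokine transcript that differed most between the genotypes, while Fgf21, Angptl8 and Inhbe shared an 8-letter match. Sequences are those of RefSeq on build GRCm38.p6, 250 bases that end just before the annotated start and that run 5′ to 3′ on the strand of the gene. They lie at chr13:56548539-56548788 (minus strand) for Lect2, chr7:45615491-45615740 (minus strand) for Fgf21, chr9:21835260-21835509 (plus strand) for Angptl8 and chr10:127351849-127352098 (minus strand) for Inhbe. Capitals mark letter matches to TGATGCAA on either strand in Fgf21, Angptl8 and Inhbe, the further matches CACGTG and TATAAA in Fgf21, and GTTAAT in Lect2.
Lect2: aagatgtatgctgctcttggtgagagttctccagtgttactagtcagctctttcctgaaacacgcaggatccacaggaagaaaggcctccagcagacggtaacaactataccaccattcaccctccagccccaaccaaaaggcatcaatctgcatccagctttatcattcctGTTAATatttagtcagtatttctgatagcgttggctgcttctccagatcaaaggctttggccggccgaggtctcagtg
Fgf21: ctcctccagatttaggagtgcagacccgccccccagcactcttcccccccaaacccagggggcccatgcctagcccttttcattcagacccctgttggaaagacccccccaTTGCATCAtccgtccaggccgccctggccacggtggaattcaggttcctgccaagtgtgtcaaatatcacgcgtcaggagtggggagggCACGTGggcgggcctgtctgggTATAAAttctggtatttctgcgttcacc
Angptl8: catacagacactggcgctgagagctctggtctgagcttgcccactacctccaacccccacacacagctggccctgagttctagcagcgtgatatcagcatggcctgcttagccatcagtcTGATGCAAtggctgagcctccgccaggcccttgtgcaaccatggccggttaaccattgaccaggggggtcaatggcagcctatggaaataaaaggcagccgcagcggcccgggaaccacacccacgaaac
Inhbe: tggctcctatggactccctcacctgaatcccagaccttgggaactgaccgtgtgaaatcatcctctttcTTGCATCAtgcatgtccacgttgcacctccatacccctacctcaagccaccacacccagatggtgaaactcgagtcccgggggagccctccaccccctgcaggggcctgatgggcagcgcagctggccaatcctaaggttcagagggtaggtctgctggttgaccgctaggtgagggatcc

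The letters TGATGCAA, which resemble the composite element that ATF4 and C/EBP proteins bind in amino acid response genes, were found in these windows of Fgf21, Angptl8 and Inhbe and in 0.791% of the 32851 promoters of the table. Their positions, counted back from the start, were -139 to -132 in Fgf21, -130 to -123 in Angptl8 and -181 to -174 in Inhbe, with the match on the opposite strand in Fgf21 and Inhbe. GTTAAT, an HNF1-type half-site by its letters, stood at -78 to -73 in Lect2 and in 6.43% of promoters. CACGTG and TATAAA stood in the Fgf21 window and in 6.02% and 12.4% of promoters. TATAAA also stood in windows of Inhba and Fetub, which are not printed. The nuclear receptor half-site AGGTCA, present in 14% of promoters, was not among the letters of the 9 windows that the table held for 8 of the measured genes. In all, 19 motifs were searched on both strands. Beside those 5 motifs, the search took in CCAAT (the CCAAT box), the full cAMP response element TGACGTCA with its shorter core TGACGT and the HNF4-type motif CAAAGTCCA. Of these, CCAAT, found in 33.8% of promoters, stood in the printed Inhbe window at -55 to -51, where it is not marked. The search also took in the AP-1 motif TGACTCA, the PAR bZIP motif TTACGTAA and the C/EBP motif TTGCGCAA. The forkhead motif was searched as TGTTTAC, and in a second form that ends in GC in place of AC, which is written TGTTTGC in full. The steroid receptor half-site was AGAACA. The 4 remaining motifs were repeats of those above: AGGTCA followed by itself after 1 letter, the same after 4 letters, CACGTG followed by itself after 5 letters, and the half-site of Lect2 followed after 1 letter by its reverse complement. Several contain one another, and those named were picked after the search, so a match is a description of the letters only.

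The arrays held log2 values for 45101 probe sets with array medians of 4.17 to 4.24, and 11895 genes bright enough to test. Ncoa2 was 5.41-fold lower in the null livers (log2 fold change -2.44, SE 0.20, limma adjusted p = 0.000354), and its relatives Ncoa1 and Ncoa3 were not called, at -0.13 and -0.27. This is the value of the brightest Ncoa2 probe set. Of its 4 probe sets above the filter 2 were called when tested on their own, with log2 fold changes from -2.44 to 0.07. The mean of all Ncoa2 probe sets gave -1.20. Replicate 3 of both genotypes stood apart from replicates 1 and 2, with a correlation of 0.66 between the 2 arrays' deviations from their group means over probe sets, so values without each array and for replicates 1 and 2 alone were computed for each hepatokine result. Of 13 hepatocyte markers limma called none (0 with an unadjusted p below 0.05), their median log2 fold change was 0.01, and their summed level on the linear scale ran from 153056 to 156113 in wild-type and 153180 to 156732 in null liver. Of 18 macrophage and Kupffer cell markers 16 were lower, with a median of -0.95 and summed levels of 6606 to 6896 in wild-type and 3239 to 3463 in null liver. Of 13 immediate early genes 8 were lower, with a median of -0.81. Counts of genes higher and lower were 1 and 0 of 2 adipocyte, 0 and 3 of 5 B and plasma cell, 0 and 2 of 8 T and NK cell, 0 and 0 of 5 neutrophil, 0 and 0 of 11 endothelial, 1 and 0 of 12 stellate cell, 0 and 1 of 3 cholangiocyte, 1 and 0 of 2 erythroid and 0 and 0 of 2 exocrine pancreas markers. The part of any of these in the hepatokine results was not tested, and in whole liver fewer cells of a type and less RNA per cell cannot be told apart.

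Of the 9 hepatokine genes measured, Lect2 and Angptl4 were lower in SRC-2 null liver and the other 7 did not pass the test in either direction. Lect2 fell 1.70-fold and Angptl4 1.31-fold. All 9 had a mean above 4.21, the log2 value below which genes were not tested. A gene was called when its limma p, adjusted by Benjamini-Hochberg over the 11895 genes, was under 0.05, and 4.67% of all genes tested were called, 3.13% as lower and 1.55% as higher. The median log2 fold change was -0.06 over the 9 genes and 0.00 over all genes tested, and the median size without sign was 0.17 against 0.11. In 4 of the 9 the null arrays lay wholly below the wild-type arrays, where 12.5% of all genes tested did so and a further 10.8% lay wholly above, 23.4% in all. These 4 were Lect2, Angptl4, Angptl8 and Angptl6.

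**Figure D1:**
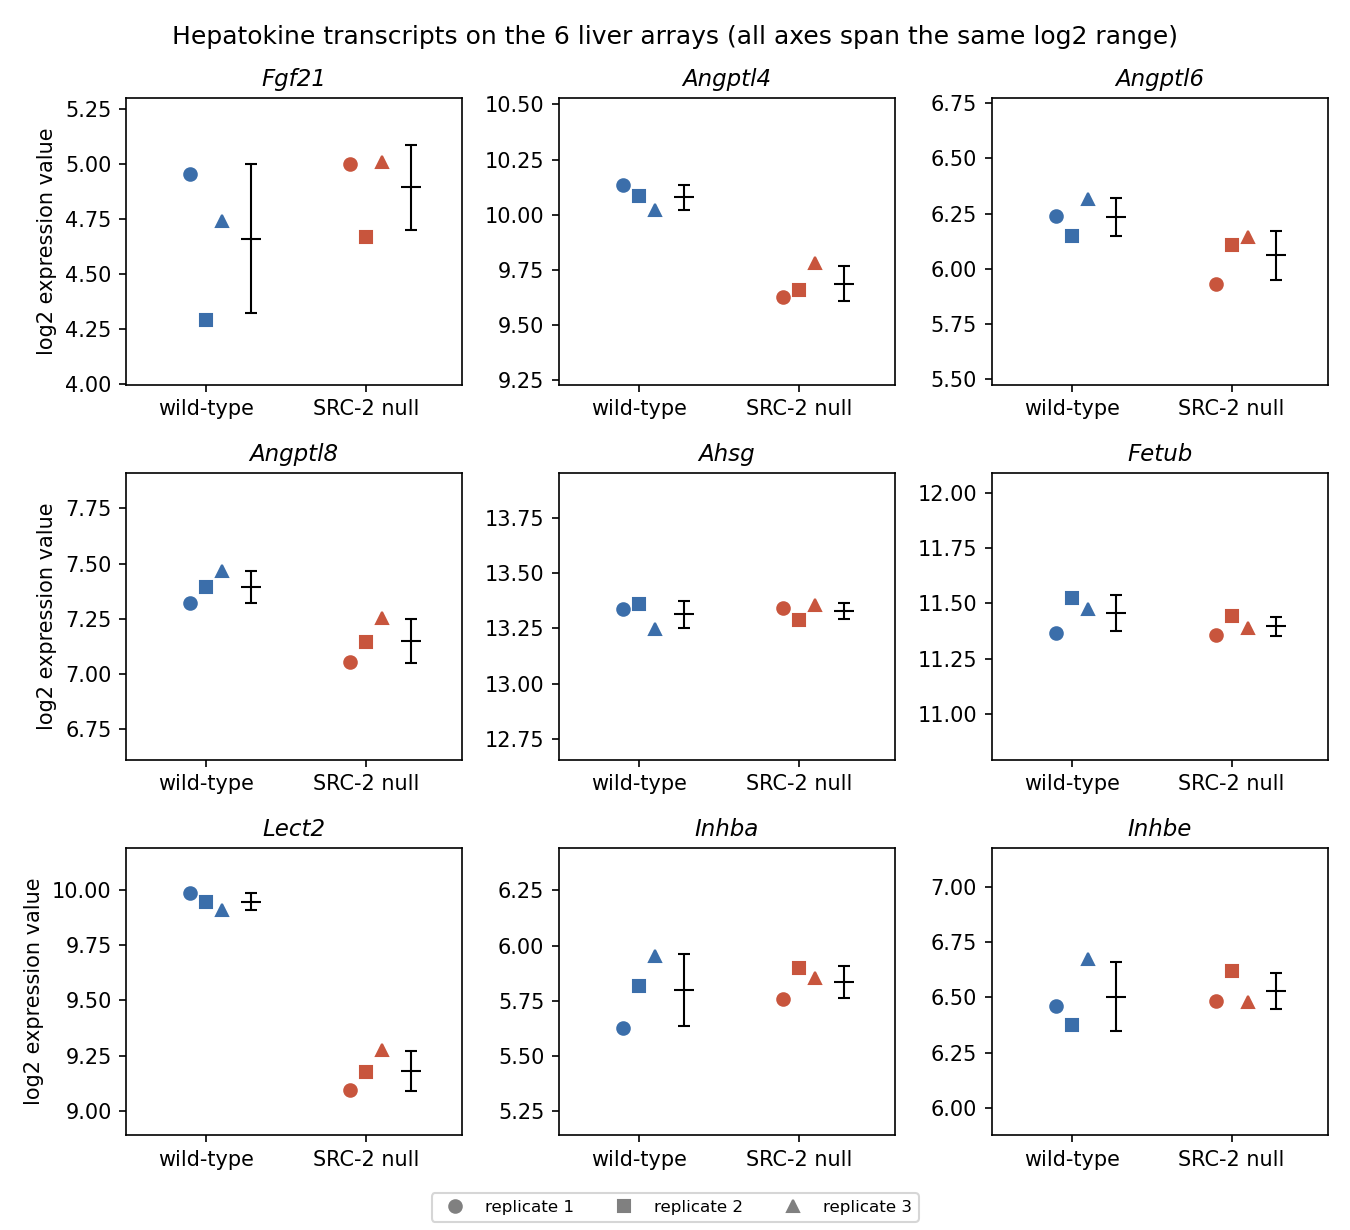
Log2 expression values of the 9 measured hepatokine genes on each array, with wild-type in blue and SRC-2 null in red, marker shape giving the replicate number of the labels, and the bar beside each group its mean and SD (n = 3). Every axis spans the same number of log2 units, so the separation of the genotypes for Lect2 and Angptl4 and the overlap for Fgf21, Ahsg, Fetub, Inhba and Inhbe can be compared by eye.

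Lect2, the leukocyte-derived chemotaxin 2 gene, read 9.99, 9.95 and 9.91 on the wild-type arrays and 9.09, 9.17 and 9.27 on the null arrays. Both groups were tight, and the lowest wild-type array stood 0.64 log2 units above the highest null array. The means were 9.95 ± 0.04 and 9.18 ± 0.09 (SD, n = 3), a log2 fold change of -0.77 (SE 0.08, limma adjusted p = 0.00146), so that the null level was 58.7% of the wild-type level. The 95% interval of the fall ran from 1.49-fold to 1.95-fold. Lect2 ranked 109 of the 11895 genes by p, and 150 among the 372 lower genes by the size of the fall. The difference was in the same direction within each replicate number, at -0.89, -0.77 and -0.64 for replicates 1, 2 and 3. It was called under each of the 16 alternative settings run, with log2 fold changes of -0.83 to -0.72 and adjusted p of 9.8e-05 to 0.0120. The macrophage markers had a median of -0.95 and the hepatocyte markers a median of 0.01. The part of either cell type in the fall of Lect2 was not tested. Of the 4 genes tested for LECT2 receptors and partners (Met, Tie1, Tek and Hgf) limma called none, with 0 at an unadjusted p below 0.05. The 2 with the smallest p were Hgf, hepatocyte growth factor, at -0.16 (adjusted p = 0.597), and Tek, an angiopoietin receptor, at -0.11 (adjusted p = 0.748). The median of the 4 was -0.11, and it was 0.03 without wild-type replicate 3 and -0.01 in replicates 1 and 2 alone.

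Of the 3 angiopoietin-like genes measured, each with its null arrays below its wild-type arrays, as in 12.5% of all genes tested, Angptl4 alone passed the test. Angptl4, which encodes an inhibitor of lipoprotein lipase induced by PPAR-alpha and by glucocorticoids, read 10.13, 10.08 and 10.02 on wild-type and 9.62, 9.66 and 9.78 on null arrays. The groups were separated by 0.24 log2 units, more than the range within either group. The means of 10.08 ± 0.06 and 9.69 ± 0.08 (SD, n = 3) gave a log2 fold change of -0.39 (SE 0.08, limma adjusted p = 0.0370), with an interval of the fall from 1.15-fold to 1.50-fold. The sign was the same within each replicate number, at -0.51, -0.42 and -0.24. This call was lost, at adjusted p of 0.0586 to 0.146, without wild-type replicate 1, 2 or 3 or null replicate 1 or 2, and was kept at 0.0489 without null replicate 3. It was also lost with no filter on dim genes (adjusted p = 0.0597), when every probe set was tested on its own (0.0734, in a test that called 2.41% of probe sets) and in replicates 1 and 2 alone (0.0564), with a log2 fold change of -0.47 to -0.36 throughout. The probe set used is of a kind that can detect related transcripts. The second Angptl4 probe set, 1453410_at, lay below the filter, at 2.73, 2.74 and 2.83 on wild-type and 2.55, 2.46 and 2.32 on null arrays, where RMA values hold mostly background. Tested with no filter, its difference of -0.32 had an unadjusted limma p of 0.0103 and an adjusted p of 0.259.

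Angptl8, whose transcript rises with feeding and insulin, read 7.32, 7.39 and 7.47 on wild-type and 7.05, 7.14 and 7.25 on null arrays. The groups did not overlap, with 0.067 log2 units between them. The log2 fold change was -0.24 (SE 0.09, limma adjusted p = 0.207), one of the 17.2% of genes with an unadjusted p below 0.05. The 95% interval, which takes no account of the other genes tested, ran from -0.45 to -0.04. The 3 within-number differences were close to each other, at -0.27, -0.25 and -0.21, and with the replicate number as a block, a fit that called 6.99% of genes, the adjusted p was 0.0935. None of the 16 alternative settings called it. Angptl6, whose protein is also named angiopoietin-related growth factor, read 6.24, 6.15 and 6.32 on wild-type and 5.93, 6.11 and 6.14 on null arrays. Here the nearest arrays of the genotypes were 0.0047 log2 units apart, the log2 fold change was -0.17 (SE 0.09, limma adjusted p = 0.398), and the interval of -0.39 to 0.04 spanned no change. The difference was smallest within replicate 2, at -0.04, and -0.31 and -0.17 within replicates 1 and 3.

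In a list of genes around lipoprotein lipase, which also held the enzyme itself and other lipases, calls went both ways. Of 11 tested 2 rose and 1 fell, with a median log2 fold change of 0.00. Lpl, lipoprotein lipase itself, which is inhibited by ANGPTL4, rose 1.87-fold from 7.60 ± 0.16 to 8.51 ± 0.12 (SD, n = 3; log2 fold change 0.90, limma adjusted p = 0.00246), and both of its probe sets were called. Apoc2, the activator of lipoprotein lipase, rose 1.39-fold (adjusted p = 0.0174), and Lipg, endothelial lipase, fell 3.07-fold (log2 fold change -1.62, SE 0.29, adjusted p = 0.0185). Of the 3 Lipg probe sets 2 were called, with log2 fold changes from -1.75 to -0.31. Beside Lpl, the adipocyte marker Fabp4, a gene that is also abundant in macrophages, rose 3.31-fold, Retn was not called and the other 2 of the 4 adipocyte markers measured lay below the filter. The summed level of the 4 was 120 to 154 in wild-type and 350 to 400.3 in null liver, and the part of adipocytes in the rise of Lpl was not tested. Apoc2 was no longer called when wild-type replicate 1 or 2 or null replicate 2 or 3 was left out (limma adjusted p up to 0.0820). The same held for Lipg without null replicate 1 or 2 (up to 0.0910), so that 1 of the 11 was called without null replicate 2. In replicates 1 and 2 alone Apoc2 was also not called (0.0993).

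**Figure D2:**
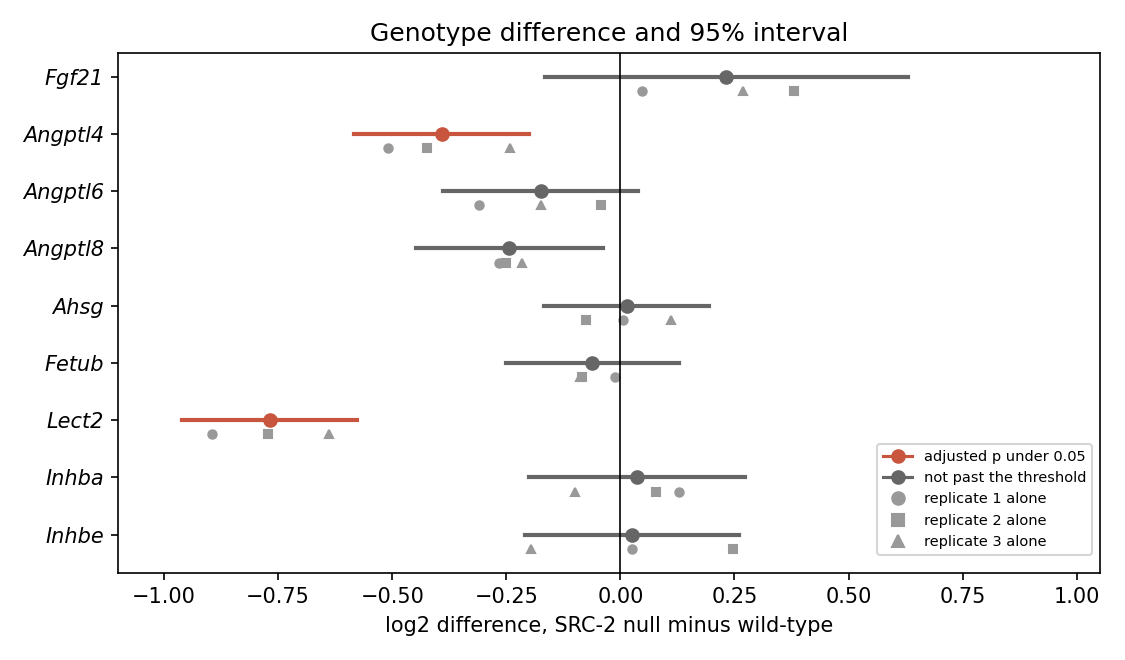
Log2 difference of SRC-2 null minus wild-type for the 9 hepatokine genes, with the point and line the limma estimate and its 95% interval, red where the adjusted p was under 0.05, and grey symbols the difference within each replicate number. The 3 within-number differences lie on the same side of 0 for Lect2, Angptl4, Angptl6 and Angptl8 and, on the other side, for Fgf21, and for Fetub below 0 at -0.01 to -0.09, while those of Ahsg, Inhba and Inhbe fall on both sides.

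Fgf21, the fasting and stress hormone gene, read 4.95, 4.29 and 4.74 on wild-type and 5.00, 4.67 and 5.01 on null arrays. Wild-type replicate 2 was the lowest of the 6 and the groups overlapped. The means were 4.66 ± 0.34 and 4.89 ± 0.19 (SD, n = 3), a log2 fold change of 0.23 (SE 0.17, limma adjusted p = 0.572). The interval of -0.17 to 0.63 was the widest of the 9 genes and holds both a small fall and a 1.55-fold rise. The null array was above the wild-type array of the same number by 0.05, 0.38 and 0.27, a common sign that is lost if replicates 1 and 2 are matched the other way, since null replicate 2 lay below wild-type replicate 1. With the replicate number as a block the unadjusted limma p was 0.0373, as it was under 0.05 for 23.9% of all genes in that fit, and the adjusted p was 0.178. Without wild-type replicate 2 the log2 fold change was 0.05, and without wild-type replicate 1 it was 0.38. Its values lay not far above the filter value of 4.21, where folds are compressed.

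None of the 9 tested genes for FGF21 receptors and endocrine FGF signalling was called in limma. An unadjusted p below 0.05 was found for 4, all with log2 fold changes below 0, and for 17.2% of all genes tested in either direction. Klb, which encodes the coreceptor beta-klotho, had means of 8.18 ± 0.04 in wild-type and 7.82 ± 0.14 in null liver (SD, n = 3; log2 fold change -0.36, limma adjusted p = 0.0816). Fgfr4, the main FGF receptor of hepatocytes, had a log2 fold change of -0.32 (adjusted p = 0.0936). In both genes the 3 null arrays lay below the 3 wild-type arrays, as in 12.5% of all genes tested. Klb passed with an intensity trend in the variance (limma adjusted p = 0.0437) and with array weights (0.0230). Over all 16 alternatives, however, its log2 fold change ran from -0.44 to -0.09, with a limma adjusted p of up to 0.598. The -0.09 came with the mean of all Klb probe sets, of which 1 lay above the filter. Without each array in turn the adjusted p of Klb was 0.0627 to 0.256. None of the 4 Fgfr4 probe sets above the filter was called on its own, at log2 fold changes of -0.32 to -0.10. Fgfr2, a gene named after its value was seen, passed with the replicate number as a block (log2 fold change -0.34, limma adjusted p = 0.0460) and with array weights (-0.34, 0.0415). The list's median was -0.08. With each array left out in turn it ran from -0.20 without wild-type replicate 2 to -0.05 without null replicate 1, and it was -0.26 with the stricter filter.

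The fetuin genes, which are neighbouring protein-coding genes, differed between the genotypes by less than the range of their wild-type arrays. Ahsg, fetuin-A, read 13.34, 13.36 and 13.25 on wild-type and 13.34, 13.29 and 13.36 on null arrays. Its log2 fold change was 0.01 (SE 0.08, limma adjusted p = 0.960), and the interval of -0.17 to 0.20 leaves out a change of more than 1.14-fold upward. Fetub, fetuin-B, read 11.37, 11.53 and 11.48 on wild-type and 11.35, 11.44 and 11.39 on null arrays, with a log2 fold change of -0.06 (SE 0.08, adjusted p = 0.777) and an interval of -0.25 to 0.13. The values of Ahsg lay near the top of the arrays' range, which ended at 14.5 to 14.6, and how far the signal of so bright a probe set can still follow the amount of RNA was not tested. Among 8 tested genes of related plasma proteins, cystatins and the insulin receptor pathway that fetuin-A is known to inhibit, Irs1, an insulin receptor substrate, fell 1.48-fold (log2 fold change -0.56, SE 0.12, adjusted p = 0.0349). Its call was lost without any one of wild-type replicates 1, 2 and 3 and null replicates 1 and 2, at adjusted p of up to 0.138. Kng1, which encodes kininogen, was not called at -0.16 (adjusted p = 0.379), and the median of the 8 was -0.11, or -0.04 with no filter, -0.06 with array weights and -0.05 without wild-type replicate 3.

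The activin subunit genes Inhba and Inhbe did not pass either. Inhba, the beta-A subunit, read 5.63, 5.82 and 5.95 on wild-type and 5.76, 5.90 and 5.85 on null arrays, and all null values lay within the wild-type range. Its log2 fold change was 0.04 (SE 0.10, limma adjusted p = 0.913), with an interval of -0.20 to 0.27. Its second probe set, 1458291_at, lay below the filter, at 3.66, 3.84 and 4.03 on wild-type and 4.04, 3.98 and 4.05 on null arrays, and had an adjusted p of 0.658 when tested with no filter. Inhbe, the beta-E subunit, which is made chiefly in liver, read 6.46, 6.38 and 6.68 on wild-type and 6.48, 6.62 and 6.48 on null arrays, again with all null values inside the wild-type range. The log2 fold change was 0.03 (SE 0.10, adjusted p = 0.939) and the interval -0.21 to 0.26. The within-number differences of 0.03, 0.25 and -0.20 had no common sign. Of 29 other genes of activin, inhibin and TGF-beta signalling 1 was called, Tgfbr2, a TGF-beta receptor, which rose 1.54-fold (log2 fold change 0.62, adjusted p = 0.0294), with a list median of -0.02. Its call was lost without wild-type replicate 1 or 2 or any null array (limma adjusted p up to 0.120). It was also lost with the mean of all its probe sets, and when each of the 2 above the filter was tested on its own. Id2, a target of BMP signals, was not called at 0.24 (adjusted p = 0.170).

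Of 26 other liver-secreted metabolic factors tested 1 rose and 2 fell. These calls were 11.5% of the list, where 4.67% of all genes tested were called, and the list's median log2 fold change was -0.09. Enho, which encodes the peptide adropin, fell 2.07-fold from 7.40 ± 0.12 to 6.35 ± 0.13 (SD, n = 3; log2 fold change -1.05, SE 0.10, limma adjusted p = 0.000779). It was called whichever array was left out, but 2 of its 4 probe sets above the filter were not called and their log2 fold changes ran from -1.19 to 0.09. Orm3, an orosomucoid of the acute phase, fell 1.50-fold, and Gpx3, a plasma glutathione peroxidase, rose 1.43-fold, each with an adjusted p of 0.0147. Orm3 was no longer called when wild-type replicate 1 or 2 or null replicate 1 was left out. Nor was Gpx3 when wild-type replicate 1 or null replicate 2 was, so that 1 of the 26 was called without wild-type replicate 1. Gpx3 was also not called in replicates 1 and 2 alone (limma adjusted p = 0.0961).

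**Figure D3:**
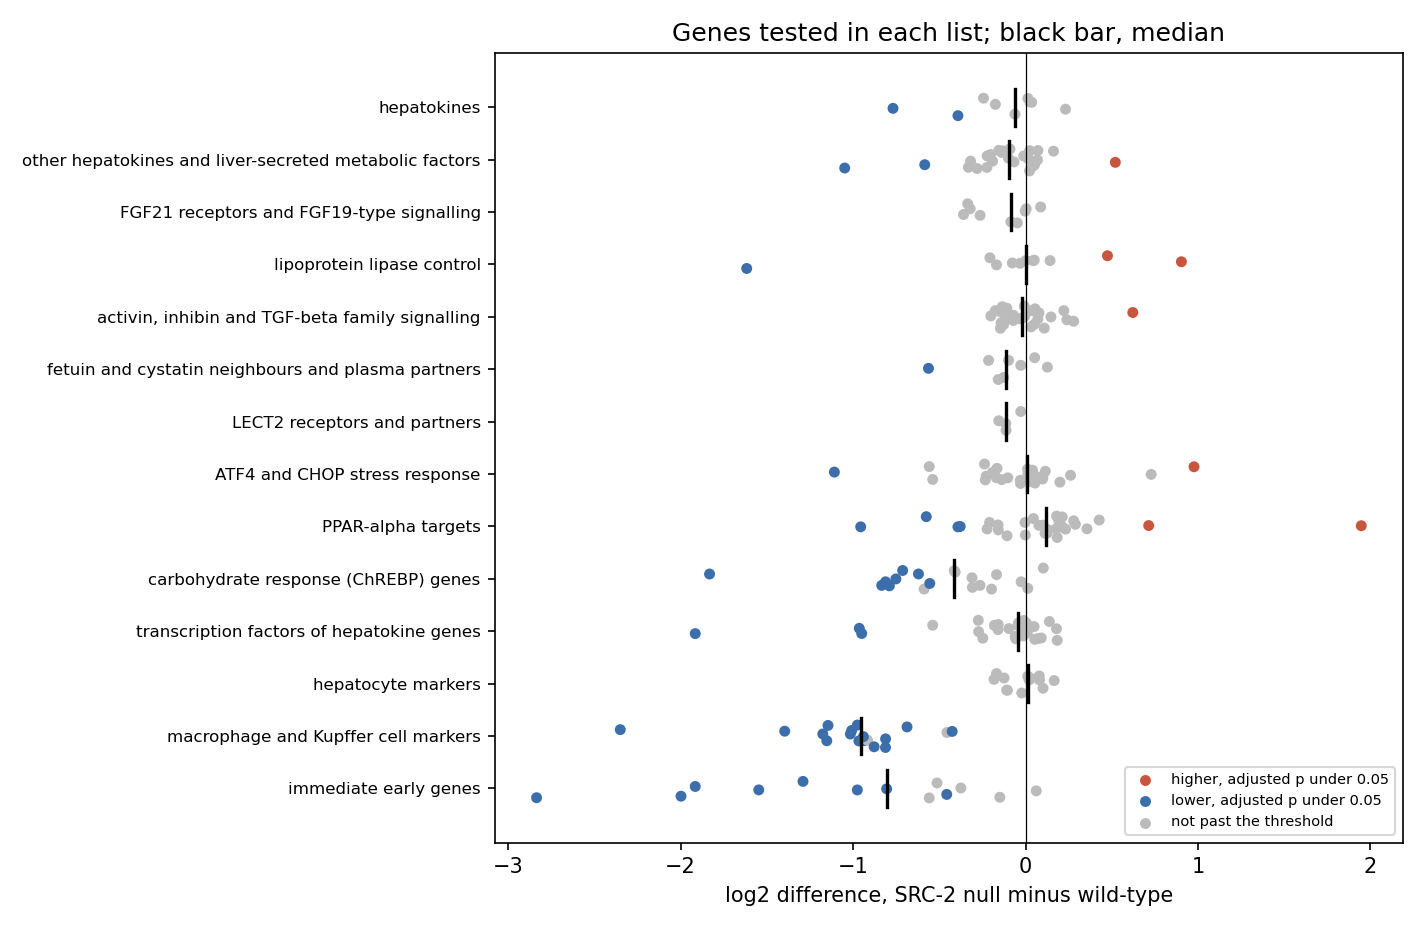
Log2 difference of SRC-2 null minus wild-type for each gene tested in the hepatokine list, the lists around it, and the hepatocyte, macrophage and immediate early lists, each dot a gene and each black bar the list's median. Dots are red or blue where the limma adjusted p was under 0.05 for a higher or lower level, and the carbohydrate response, macrophage and immediate early lists have the lowest medians, at -0.41, -0.95 and -0.81.

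The genes that share regulators with the hepatokines were compared next. Of 28 tested genes of the ATF4 and CHOP stress response, which includes known regulators and companions of Fgf21 and Inhbe, 1 rose and 1 fell. These calls were 7.14% of the list, where 4.67% of all genes tested were called, and the median log2 fold change was 0.01. Asns, asparagine synthetase, rose 1.97-fold from 4.78 ± 0.32 to 5.75 ± 0.12 (SD, n = 3; log2 fold change 0.98, limma adjusted p = 0.0113), and Ddit4, an inhibitor of mTORC1, fell 2.16-fold (log2 fold change -1.11, adjusted p = 0.000407). Asns lost its call without null replicate 1 (limma adjusted p = 0.0604), which left 1 called, and Asns was also not called in replicates 1 and 2 alone (0.106). With the replicate number as a block 5 genes were called, adding Atf5 (0.73), Atf3 (-0.56) and Cebpb (-0.54), transcription factors named after their values were seen. The hepatokine genes Fgf21 and Inhbe were not called beside these, at log2 fold changes of 0.23 and 0.03.

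Of 30 tested PPAR-alpha target genes, a list that also holds Fgf21 and Angptl4, 2 rose and 4 fell, with a median log2 fold change of 0.12. Those lower beside Angptl4 were Pdk4, a kinase that restrains pyruvate dehydrogenase, 1.94-fold (limma adjusted p = 0.00524), Plin5, a lipid droplet coat protein, 1.49-fold (0.00935), and Acot1, an acyl-CoA thioesterase, 1.30-fold (0.0329). Those higher were Cyp4a12a, a fatty acid hydroxylase with male-biased expression, 3.85-fold (adjusted p = 1.36e-05), and Cd36, a fatty acid transporter, 1.64-fold (0.0130). Acot1 lost its call without any one of the 6 arrays (limma adjusted p up to 0.132) and in replicates 1 and 2 alone. Cd36 lost its call without wild-type replicate 2, so that 3 of the 30 were called without that array. Tested on their own, 1 of 2 Plin5 probe sets (log2 fold changes of -0.58 and -0.50) and 2 of 3 Cd36 probe sets (0.57 to 0.77) were called. Whether Ppara activity differed was not tested.

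Among the lists around the hepatokines, all chosen with earlier results of these data known, the carbohydrate response genes had the largest share of calls. Many of these genes are targets of the transcription factor ChREBP. Of 19 tested 8 fell, 42.1% of the list, where 3.13% of all genes tested were called as lower. No log2 fold change above 0 had an unadjusted limma p below 0.05 (0 genes). The median log2 fold change was -0.41, or -0.28 over all their probe sets. Thrsp, a lipogenic factor induced by thyroid hormone, went down 3.56-fold (adjusted p = 1.36e-05), although 1 of its 3 probe sets was at -0.02. Of the 3 Elovl6 probe sets 1 was called on its own, with log2 fold changes from -0.79 to -0.24. Of the 2 Txnip probe sets 1 was called, with log2 fold changes of -0.81 and -0.77. Fasn, fatty acid synthase, fell 1.78-fold, G6pc, the catalytic subunit of glucose-6-phosphatase, 1.64-fold, Txnip, the thioredoxin-interacting protein, 1.76-fold, Elovl6, a fatty acid elongase, 1.73-fold and Klf10, a transcription factor, 1.68-fold, with adjusted p of 0.000855 to 0.00204. Mlxipl, which encodes ChREBP itself and was named after its value was seen, fell 1.54-fold (limma adjusted p = 0.0107). Its call was lost without wild-type replicate 2 or null replicate 1 (up to 0.0528) and in replicates 1 and 2 alone (0.0630). Khk, also named after its value was seen, fell 1.47-fold (0.0231). That call was lost without wild-type replicate 1, 2 or 3 or null replicate 1 or 2, and in replicates 1 and 2 alone (up to 0.0801). Angptl8 had the same sign at -0.24 without passing. Feeding state is not in the labels and cannot be told apart from genotype here.

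Among 29 tested transcription factor genes that are known to act on hepatokine genes 3 fell, or 10.3%, where 4.67% of all genes tested were called. Again 0 above 0 had an unadjusted limma p below 0.05, and the median log2 fold change was -0.04. Egr1, an immediate early factor, fell 3.77-fold (adjusted p = 0.000381), Srebf1, which encodes the lipogenic factor SREBP-1, 1.95-fold (0.00117), and Nr0b2, which encodes the corepressor SHP, 1.93-fold (0.00127). All 3 were called whichever array was left out. Egr1 is itself one of the 8 of 13 immediate early genes that were lower.

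**Figure D4:**
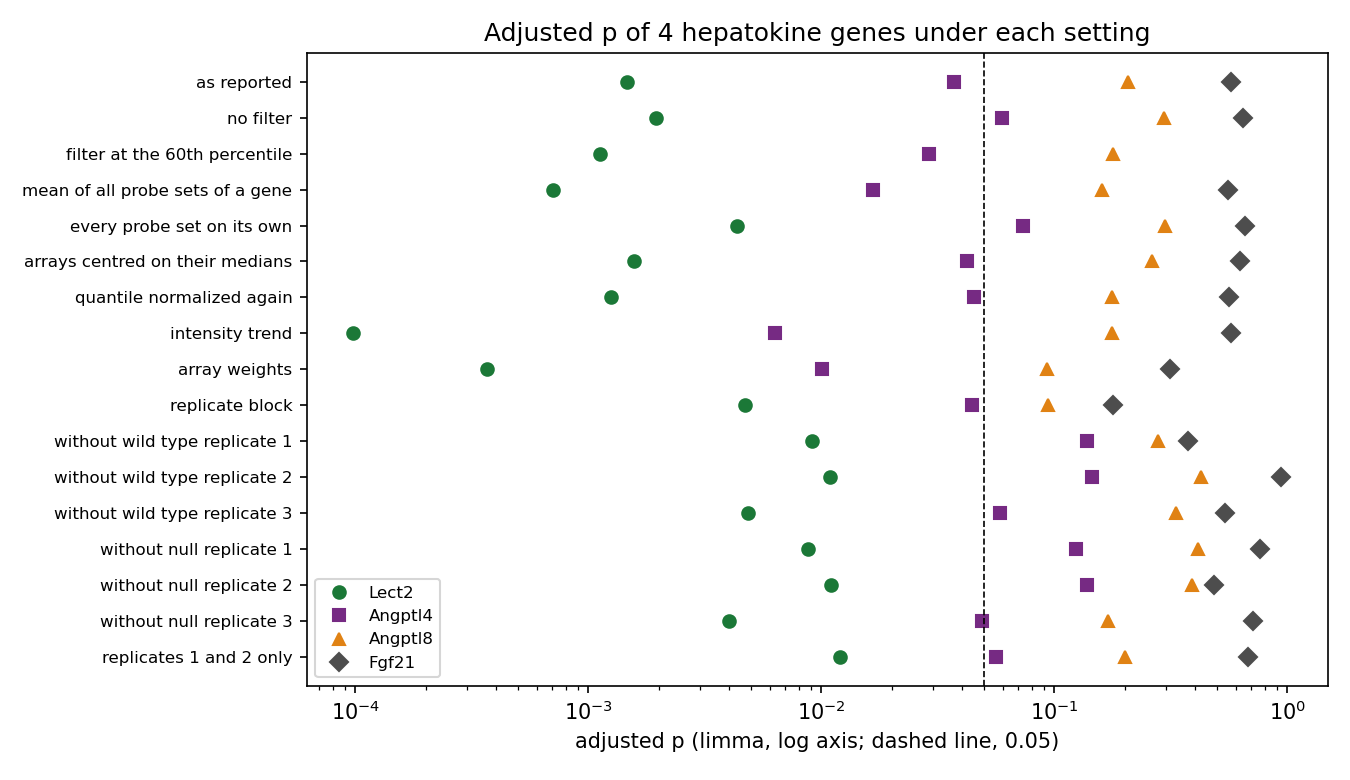
Adjusted p (limma, log axis) of Lect2, Angptl4, Angptl8 and Fgf21 as reported and under each alternative setting, with the dashed line at the threshold of 0.05. Lect2 lies left of the line in every row, Angptl4 crosses it in 8 of 16 alternatives, and Angptl8 and Fgf21 lie to its right in all that were run; Fgf21 has no point where the stricter filter removed it.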

How the data were processed

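Total RNA of mouse liver was biotin-labelled and measured on short oligonucleotide arrays, 3 wild-type and 3 SRC-2 null. The log2 expression values are those the authors deposited, 1 column per array, made with RMA per the submitters' processing notes. For its version, the chip description and the genome build: not given in the sources used here. Of 45101 probe sets, 34958 had exactly 1 symbol in the platform annotation, which can be old.

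Each gene was represented by its brightest probe set over the 6 arrays, and genes whose mean reached 4.21, the median over probe sets, were tested with limma 3.58.1 in R 4.3.3 (lmFit and eBayes, two-sided, genotype only), with Benjamini-Hochberg adjustment over 11895 genes. The number of arrays limits precision, and no detection calls were used, so low values do not show absence. RMA folds near the low end are compressed.

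The hepatokine genes and the lists around them were chosen with earlier results of these data known. Named genes were every hepatokine gene, Ncoa1, Ncoa2 and Ncoa3, and in each list up to 6 called genes or, with fewer than 2 called, the 2 with the smallest p. Same-numbered arrays of the genotypes deviated together over probe sets (correlations of 0.25, 0.30 and 0.66 for replicates 1, 2 and 3), so the numbers were treated as pairing them in a fit with a replicate block. The crossed correlations between replicates 1 and 2 were slightly higher than the same-numbered ones (0.33 and 0.31), and those of either with replicate 3 were below 0, so the block mainly separates replicate 3, and differences within replicates 1 and 2 rest on the labels' numbers alone. Alternatives were other filters, probe set rules, scalings, variance models, the block and each array left out. Figures were drawn with matplotlib 3.10.9.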

Additional observations from a re-analysis of the deposited data

How the results depend on the processing

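Lect2 kept its direction and its call under each of the 16 alternatives. Angptl4 kept its direction under all 16 and its call under 8; its log2 fold change was -0.39 with no filter and with every probe set on its own and -0.47 in replicates 1 and 2 alone, where 1 hepatokine gene was called each time, and -0.44 to -0.36 without each array in turn, where 1 to 2 were called. None of the other 7 was called under any alternative run, and Fgf21 was not tested under the stricter filter. Small differences changed sign: Ahsg was -0.027 with array weights, -0.035 in replicates 1 and 2 alone and -0.021 to 0.037 without each array, Inhba was -0.050 to 0.11 and Inhbe -0.039 to 0.11 without each array. With the replicate number as a block, Lect2 had an adjusted p of 0.00470 and Angptl4 of 0.0445, and the block changed no other hepatokine call.

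Over all genes, 556 were called, 184 higher and 372 lower. The block called 832, with 307 higher, array weights 985 (405 higher, 580 lower), replicates 1 and 2 alone 329 (95 and 234), and every probe set on its own 107 genes higher. Without each array in turn 275 to 438 were called, 65 to 174 higher and 210 to 315 lower. The causes were not tested, beyond the fewer arrays or more tests that these settings imply.

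Among the lists around the hepatokines, an intensity trend called 6 other secreted factors, 1 FGF signalling, 11 PPAR-alpha and 13 carbohydrate response genes, array weights 5 other secreted factors, 2 FGF signalling and 4 ATF4 genes, and the block 1 FGF signalling and 5 ATF4 genes. The mean of all probe sets called 2 activin and 10 PPAR-alpha genes, and every probe set on its own 0 activin and 0 fetuin-related genes (limma). Without each array in turn, 1 to 3 ATF4, 3 to 6 PPAR-alpha, 0 to 1 activin, 0 to 1 fetuin-related, 1 to 3 lipase and 1 to 3 other secreted genes were called. The median of the FGF signalling list was -0.26 with the stricter filter, -0.11 with every probe set on its own, -0.10 with arrays centred on their medians, -0.10 with array weights and -0.20 to -0.045 without each array. With every probe set on its own the median of other secreted factors was -0.030 and of carbohydrate response genes -0.28. The LECT2 partner median was -0.0097 in replicates 1 and 2 alone and -0.16 to 0.026 without each array, and the ranges without each array were -0.091 to 0.013 for activin, -0.087 to -0.015 for transcription factor, -0.020 to 0.086 for lipase and -0.48 to -0.40 for carbohydrate response genes. The test of the dim Angptl4 and Inhba probe sets with no filter was chosen after seeing the data. Angptl8 and Fgf21 did not pass after adjustment under any setting in which they were tested.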
